A study of Mus musculus with 8 samples.

Results

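Mouse embryonic stem cells carrying the HNRNPK 6A mutation were compared after 14 days of differentiation with the same line at day 0. All libraries titled as 6A were taken, 4 of the 8 in the series, 2 at each day. The cells are a hybrid of CAST/Ei and 129/Sv/Jae, so that part of the reads can be given to a parental genome. The other 4 libraries are WT cells of the same hybrid background at the same days, and they are used below to estimate the spread and to test whether a change differed between genotypes. Both genotypes were kept at day 0 on a feeder layer of irradiated embryonic fibroblasts, and the feeders were taken away before RNA was made. Day 14 cells of both genotypes had been taken off LIF, kept as embryoid bodies in suspension for 4 days and plated at day 5. The labels call the 2 libraries of a group biological replicates and do not say whether they come from separate clones or cultures, so the p-values measure only the spread between these libraries. What the 6A mutation substitutes is not described in the labels, and the series' design text names day 7 where the titles and protocol give day 14.

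HNRNPK binds RNA and belongs to the hnRNP proteins, and it links the Xist RNA to Polycomb complexes. Xist is the noncoding RNA that coats and silences one X chromosome when female cells differentiate. Embryoid bodies grown without LIF, the cytokine that holds mouse stem cells in the naive state, form a mixture of endoderm, mesoderm and ectoderm derivatives.

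RNA was depleted of ribosomal RNA and sequenced as 150 bp pairs. The 6A libraries held 12425526 and 15540163 counts at day 0 and 9922988 and 9882947 at day 14. Levels are given as CPM, the usual count scaled to library size, here with TMM factors. A floor of 3 counts, the limit that a count of 0 allows, was 0.2003 to 0.2897 CPM on this scale, and it covers counting error only. Each p-value below is from the fit over all genes. The first principal component of the 8 libraries held 86.7% of the variance and separated the days. The 6 Y-linked genes summed to 508 and 702 counts in the 6A day 0 libraries and to 1 and 0 counts at day 14. In bulk RNA, fewer cells of a type and less RNA per cell cannot be told apart.

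Hnrnpk, the mutated gene, stood at 527 and 538 CPM at day 0 and 348 and 385 CPM at day 14. Both day 14 libraries were lower than both day 0 libraries (log2 fold change -0.54 ± 0.12 (SE), edgeR adjusted p = 0.00132). In CAST reads alone the fall was not called (-0.385, edgeR adjusted p = 0.214). Its transcript level does not check a mutation that changes amino acids.

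Of 15458 genes tested in 6A, 11119 changed between the days at an edgeR adjusted p under 0.05, which is 71.9%. Genes are said below to have risen or fallen by this test, with the size on the log2 scale. Among them 5468 rose (35.4%) and 5651 fell (36.6%). Among the genes called, the estimated change was over 2-fold for 3622 that rose (23.4% of those tested) and 3181 that fell (20.6%). It was over 8-fold for 1127 genes that rose and 435 that fell. These sizes are estimates, and no test against a 2-fold or 8-fold change was run. The median log2 fold change over all genes tested was -0.029. Library totals without a scaling factor moved this median up by 0.134. The day 0 and day 14 libraries did not overlap for 13428 of the genes tested (86.9%). These shares are the background for every list below, since a list with about 36% of its members called in a direction does not stand apart from the whole. Of the genes tested 181 had no count in the 6A day 0 libraries and could be called only as rises. Another 41 had none at day 14 and could be called only as falls.

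**Figure D1:**
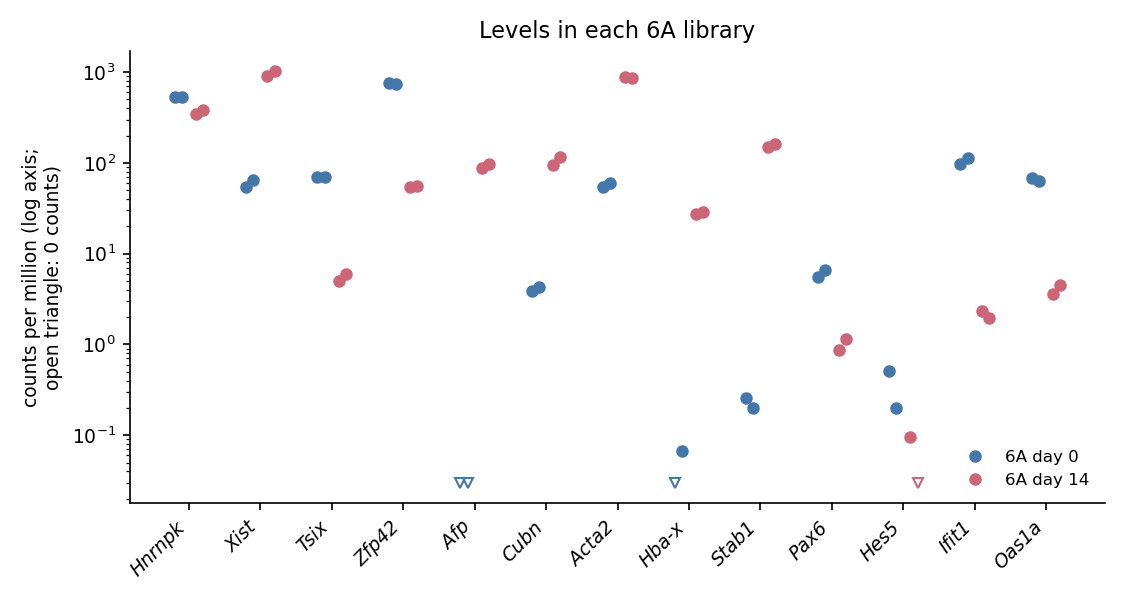
Level of 13 genes in each of the 4 6A libraries, in CPM on a log axis, with day 0 in blue, day 14 in red and open triangles for libraries with 0 counts. Xist stood at 54.6 and 64.7 CPM at day 0 and 913 and 1019 CPM at day 14, and Afp had no count at day 0.

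The genes that hold the naive state fell together. Of 20 naive pluripotency genes tested, 18 fell and 0 rose, and the median log2 change was -3.15. Stat3 and Socs3, of the LIF signalling pathway, were the members not called, and are named because they were not (edgeR adjusted p = 0.459 and 0.194). Zfp42, a zinc finger gene used as a marker of naive cells, stood at 752 and 734 CPM at day 0 and 54.6 and 56.1 CPM at day 14 (log2 fold change -3.75 ± 0.12 (SE), edgeR adjusted p = 1.6e-11). The transcription factor gene Tfcp2l1 stood at 639.8 and 625 CPM at day 0 and 62.9 and 71.05 CPM at day 14 (log2 fold change -3.24 ± 0.12 (SE), edgeR adjusted p = 5.1e-11). The day 14 values lay below both day 0 values for each gene. Fgf4, a growth factor gene, and Klf5, a transcription factor gene, fell by 3.30 and 3.19 on the log2 scale.

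All 15 general pluripotency genes fell, and the median log2 change was -2.67. Sox2, a core pluripotency factor gene, stood at 433 and 417 CPM at day 0 and 44.4 and 50.2 CPM at day 14 (log2 fold change -3.17 ± 0.13 (SE), edgeR adjusted p = 1e-10). Tet1, which oxidises methylated cytosine, fell by 2.86, and Dnmt3l, a cofactor of DNA methylation, fell by 2.82. Nanog, listed with the naive genes, and Pou5f1 encode core pluripotency factors, were named after their values were seen and fell by 3.13 and 3.14. The transcripts were still present at day 14, and Nanog stood at 1253 and 1237 CPM at day 0 and 139 and 145 CPM at day 14.

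The formative and primed state list split. Of its 15 members 9 fell and 5 rose. Foxd3, a transcription factor gene, fell by 4.20 and Etv5, a target of FGF signalling, fell by 2.29. Sox11 and Cdh2, the gene of N-cadherin, rose by 3.38 and 2.84. Of 18 germline genes 14 fell and 3 rose, led by Tex19.1 at 104 and 106 CPM at day 0 and 11.8 and 12.9 CPM at day 14 (log2 fold change -3.08 ± 0.14 (SE), edgeR adjusted p = 3.1e-10).

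Genes of growth and proliferation fell. All 20 MYC and nucleolar genes fell, and the median log2 change was -1.62. Ddx21, a nucleolar helicase gene, stood at 874 and 892 CPM at day 0 and 162 and 158 CPM at day 14 (log2 fold change -2.47 ± 0.15 (SE), edgeR adjusted p = 6.9e-09). Of 35 cell cycle genes 27 fell and 6 rose. Ccnd1, Mybl2 and Ccne1 fell by 2.67, 2.67 and 2.43. Cdkn1b, which encodes the cell cycle inhibitor p27, was among those that rose, by 1.99. Of 80 cytosolic ribosomal protein genes 68 fell and 0 rose, with a median of -0.76. These genes have many processed copies in the genome, so their counts are uncertain.

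Of 22 genes of amino acid and one-carbon metabolism 20 fell and 1 rose, with a median of -1.89. Slc7a3, an amino acid transporter gene, stood at 495 and 537 CPM at day 0 and 39.4 and 39.97 CPM at day 14 (log2 fold change -3.70 ± 0.12 (SE), edgeR adjusted p = 2.4e-11). Asns, Shmt1 and Psat1 fell by 2.75, 2.49 and 2.53. Ddit3, a stress response factor gene, rose by 0.93. Of 33 nuclear genes of oxidative phosphorylation 25 fell and 1 rose, with a median of -0.54. The gene that rose was Ppargc1a, a coactivator of mitochondrial gene expression (3.10 on the log2 scale).

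Genes of DNA methylation mostly fell, 8 of 11, with 2 that rose. Tet3 and Dnmt3a were those 2, at log2 fold changes of 2.04 and 1.71. Among 32 PRC2 and PRC1 subunit genes 15 fell and 10 rose, with a median of -0.09. Eed, a PRC2 core subunit gene, fell by 1.85 and Pcgf6, a subunit gene of variant PRC1, fell by 2.26. Yaf2, of PRC1, rose by 1.79. Cbx7, the main Cbx gene of stem cells, stood at 175 and 172 CPM at day 0 and 40.8 and 44.02 CPM at day 14 (log2 fold change -2.03 ± 0.13 (SE), edgeR adjusted p = 9.5e-09).

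Of 30 hnRNP family genes 15 fell and 3 rose, with a median of -0.47. Hnrnpdl, Hnrnph2 and Hnrnpc fell by 1.33, 1.27 and 0.97. Ptbp2 and Ptbp3, splicing regulators related to Ptbp1, rose by 0.96 and 0.59. Of 20 genes for Xist silencing and localisation factors 14 fell and 1 rose. Lbr, which tethers the inactive X to the lamina, fell by 1.27, and Ptbp1 fell by 1.08. Ciz1, which helps anchor Xist, rose by 1.03.

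Xist itself stood at 54.6 and 64.7 CPM at day 0 and 913 and 1019 CPM at day 14 (log2 fold change 4.02 ± 0.15 (SE), edgeR adjusted p = 5.7e-11). Tsix, the antisense RNA that represses Xist, stood at 69.1 and 69.8 CPM at day 0 and 5.02 and 5.99 CPM at day 14 (log2 fold change -3.66 ± 0.16 (SE), edgeR adjusted p = 3e-10). The 2 genes overlap and no source names the strand setting of the counting, so reads may be shared between them. Jpx, a noncoding activator of Xist, stood at 0.599 and 0.401 CPM at day 0 and 2.897 and 4.92 CPM at day 14 (log2 fold change 2.97 ± 0.43 (SE), edgeR adjusted p = 2.8e-05). Tsx, a neighbour in the X inactivation centre, fell by 2.91.

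The reads given to a parental genome show how the balance between the parental X chromosomes moved. Reads assigned to either genome made up 29.4% to 31.0% of the counts in the 6A libraries. Among 432 X-linked genes with enough such reads, the 129 share fell for 332 (76.9%) and rose for 0 (0.0%) by the edgeR test of the 129 to CAST ratio. Over all 12575 genes tested this way the 129 share fell for 9.09% and rose for 10.2%. Most of these genes had few CAST reads, with a median 129 share of 95.6% in both 6A day 0 libraries. They are therefore not a like background for the X, and the autosomal genes given last in this paragraph are nearer to one. Over the X-linked genes together the 129 share was 55.4% and 55.8% at day 0 and 19.79% and 19.97% at day 14. Both day 14 libraries lay far below both day 0 libraries. Among 3953 autosomal genes with a 129 share of 20 to 80% the share fell for 752 (19%) and rose for 152 (3.85%), and the pooled share went from 53.8% and 53.7% to 47.9% in both.

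Most Xist reads came from the 129 chromosome at both days. Their 129 share was 97.3% and 97.5% at day 0 and 97.8% and 98.1% at day 14, and its change was not called (edgeR adjusted p = 0.727). Huwe1, a ubiquitin ligase gene with many reads, had a 129 share of 51.1% and 51.8% at day 0 and 17.8% and 16.01% at day 14. Flna, the filamin A gene, had a 129 share of 64.7% and 64.1% at day 0 and 8.85% and 8.84% at day 14. For Usp9x, a deubiquitinase gene, it was 46.9% and 47.2% at day 0 and 17.2% and 19.5% at day 14. In each of these 3 genes both day 14 shares were below both day 0 shares. Some X-linked genes were nearly all 129 at day 0. Bgn, a matrix proteoglycan gene, had 98.5% and 98.9% at day 0 and 2.92% and 2.68% at day 14. Arhgap6 had 97.6% and 98.1% at day 0 and 2.78% and 2.31% at day 14. Fibroblast and collagen genes on autosomes also had mostly 129 reads at day 0, as given below, and the part of other cells in the day 0 shares of X-linked genes was not tested.

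Some genes known to escape X inactivation were looked up after their values were seen. Kdm5c, a histone demethylase gene, had a 129 share of 58.7% and 59.7% at day 0 and 41.996% and 35.9% at day 14. For Kdm6a, another histone demethylase gene, the share was 52.98% and 52.4% at day 0 and 38.5% and 38.9% at day 14. Ddx3x, an RNA helicase gene, had 52.1% and 52.99% at day 0 and 30.2% and 28.5% at day 14. All 3 shares fell (edgeR adjusted p = 1.1e-11 for Kdm5c, 0.00986 for Kdm6a and 1.2e-12 for Ddx3x), and their day 14 shares were above the median of 13.0% and 13.1% over the X-linked genes. Eif2s3x, a translation factor gene, had 31.5% and 25.5% at day 0 and 19.5% and 14.1% at day 14, nearer that median. Its day 0 shares were already low, against day 0 medians of 53.7% and 54.7% over the X-linked genes. Its day 14 shares alone therefore do not show how far its ratio moved. Of the 432 X-linked genes 42 had a share over 40% with the 6A day 14 libraries pooled. Shares as high as that of Kdm5c were thus not particular to the genes looked up. Some of the 42 genes were nearly all 129 at both days, such as Rpl39 with pooled shares of 99.9% and 99.8%. Others started near Kdm5c, such as Alg13 with pooled shares of 58.9% at day 0 and 42.8% at day 14.

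The 129 share at day 14 is given by distance from Xist as a description. Its median was 12.1% over 79 genes within 10 Mb, 16.9% over 7 genes at 10 to 20 Mb, 12.6% over 122 genes at 20 to 40 Mb, 13.5% over 112 genes at 40 to 60 Mb, 15.3% over 42 genes at 60 to 80 Mb, and 14.4% over 68 genes at 80 to 110 Mb. The highest median was that of the bin with 7 genes, and the medians followed no steady order with distance. At day 0 the medians of the same bins were 53.9%, 43.7%, 54.5%, 55.2%, 55.0% and 54.0%. In WT at day 14 they were 9.09%, 16.8%, 9.34%, 9.55%, 11.4% and 11.3%.

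**Figure D2:**
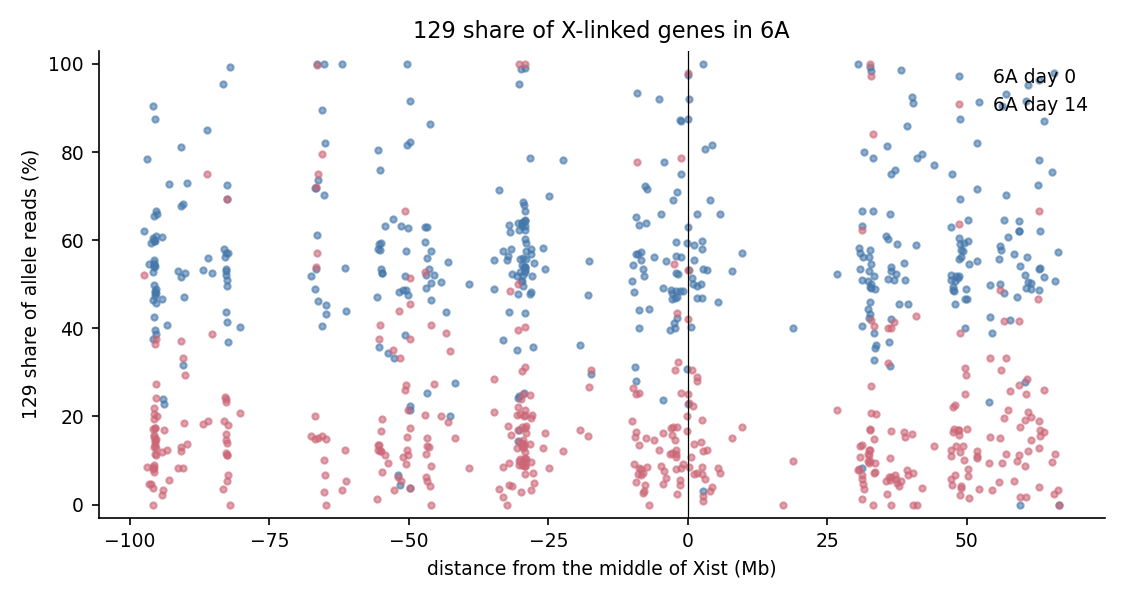
Share of allele-assigned reads given to 129 for X-linked genes in 6A, in percent, by distance from the middle of Xist in megabases, each point a gene with day 0 in blue and day 14 in red. Most day 0 points lie near 50% and most day 14 points below 20% along the whole chromosome, where 309 of 432 genes were under 20%.

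More X-linked genes fell than rose in all reads. Of 553 X-linked protein-coding genes tested 290 fell (52.4%) and 157 rose (28.4%), and the median log2 change was -0.54. Of 14022 autosomal protein-coding genes 36.3% fell and 35.9% rose, with a median of -0.02.

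Of 24 visceral and yolk sac endoderm genes listed 21 were tested, and all 21 rose. Their median log2 change was 4.52, or 4.08 with genes absent at day 0 set at their lower bound. Of those listed, 6 had no count at day 0 in 6A, and such a gene could be called only as a rise. Afp, the fetal serum protein alpha-fetoprotein, had 0 and 0 CPM at day 0 and 88.2 and 98.2 CPM at day 14, and was at least 828-fold higher by the floor of 3 counts over the day 0 libraries. Apob, a lipoprotein component, stood at 2.39 and 1.87 CPM at day 0 and 189 and 231 CPM at day 14 (log2 fold change 6.63 ± 0.21 (SE), edgeR adjusted p = 1.5e-11). Cubn, an endocytic receptor gene of visceral endoderm, stood at 3.85 and 4.34 CPM at day 0 and 94.2 and 115 CPM at day 14 (log2 fold change 4.66 ± 0.17 (SE), edgeR adjusted p = 5.4e-11). The groups did not overlap for any of these 3 genes.

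Of 14 endoderm transcription factor genes 10 rose and 1 fell. Gata6 stood at 0.855 and 0.401 CPM at day 0 and 302 and 263 CPM at day 14 (log2 fold change 8.85 ± 0.24 (SE), edgeR adjusted p = 7.2e-12). Gata4 and Sox17 rose by 5.28 and 4.95.

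Basement membrane genes rose, 21 of 24, with 1 that fell. Col4a6 stood at 0.855 and 0.668 CPM at day 0 and 172 and 177 CPM at day 14 (log2 fold change 7.84 ± 0.19 (SE), edgeR adjusted p = 4.6e-12). Col4a5, its X-linked neighbour, and Plat, a protease gene, rose by 4.71 and 3.90. Thbd, the thrombomodulin gene, fell by 4.09. The 7 members that lie where the line carries both genomes had a 129 share of 76.9% and 75.7% at day 0 and 41.1% and 40.96% at day 14. All 7 rose when CAST reads were counted alone, a choice made after seeing the data, with a median of 3.77 against 1.36 in all reads of the same genes.

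Heart, smooth muscle and vessel genes rose. Of 18 cardiac transcription factor genes 14 rose and 1 fell. Tbx20 stood at 0.342 and 0.601 CPM at day 0 and 133 and 153 CPM at day 14 (log2 fold change 8.16 ± 0.22 (SE), edgeR adjusted p = 5.8e-12). Hand2 stood at 1.97 and 1.602 CPM at day 0 and 171 and 206 CPM at day 14 (log2 fold change 6.73 ± 0.19 (SE), edgeR adjusted p = 8.2e-12). Tbx3, which is also a naive pluripotency factor, fell by 2.36.

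Of 22 cardiac sarcomere and calcium handling genes 15 rose and 1 fell, with a median of 2.47. Tnnt2, a cardiac troponin gene, stood at 0.0855 and 0.601 CPM at day 0 and 19.4 and 17.1 CPM at day 14 (log2 fold change 5.57 ± 0.35 (SE), edgeR adjusted p = 7.7e-09). Ttn, the gene of the giant sarcomere protein titin, stood at 33.9 and 33.8 CPM at day 0 and 155 and 151 CPM at day 14 (log2 fold change 2.18 ± 0.14 (SE), edgeR adjusted p = 8e-09). Casq2, a calcium store protein gene, fell by 3.26. Of 16 smooth muscle genes 14 rose and 0 fell. Acta2, smooth muscle actin, stood at 54.04 and 60.5 CPM at day 0 and 872 and 855 CPM at day 14 (log2 fold change 3.91 ± 0.14 (SE), edgeR adjusted p = 3.5e-11). Tagln and Actg2 rose by 4.02 and 4.48.

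Of 21 endothelial genes 19 rose and 0 fell. Cdh5, the gene of VE-cadherin, stood at 0.428 and 0.0668 CPM at day 0 and 84.7 and 97.6 CPM at day 14 (log2 fold change 8.59 ± 0.29 (SE), edgeR adjusted p = 2.9e-11). Kdr, a VEGF receptor gene, rose by 4.85. Of 20 macrophage and white blood cell genes listed 19 were tested, and all 19 rose, with a median of 5.88. Of those listed, 2 had no count at day 0 in 6A. Csf1r, the receptor that macrophages need, stood at 0.855 and 0.601 CPM at day 0 and 118 and 109.8 CPM at day 14 (log2 fold change 7.29 ± 0.22 (SE), edgeR adjusted p = 9.9e-12). C1qb and Mrc1, of complement and of scavenging, rose by 6.80 and 6.25. Cx3cr1 and Tnf had no count at day 0 and were at least 323-fold and at least 111-fold higher at day 14.

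Red blood cell genes rose for 9 of 13 members and fell for 1. Embryonic globins, made by the first red cells of the yolk sac, led the list. Hba-x had 0 and 0.0668 CPM at day 0 and 27.6 and 28.96 CPM at day 14, a ratio of 755-fold (95% counting interval 135 to 29856). Hbb-bh1 stood at 0.257 and 0.2 CPM at day 0 and 30.6 and 27.8 CPM at day 14 (log2 fold change 6.95 ± 0.30 (SE), edgeR adjusted p = 2.2e-10). Hbb-y had 0 and 0.134 CPM at day 0 and 16.7 and 18.3 CPM at day 14, a ratio of 234-fold (95% counting interval 64.2 to 1937). Globin genes are close copies of each other, so reads may be split among them. Gata1, the factor that drives red cell genes, fell by 1.61.

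The 250 bases before the start of 2 embryonic globin genes are shown because these genes rose in 6A, and they were picked after the matches were seen. They come from RefSeq on GRCm38.p6 (Hba-x at chr11:32276350-32276599, plus strand, Hbb-y at chr7:103853208-103853457, minus strand), 5′ to 3′ on the gene's strand, and capitals mark the letters CACCC, the box CCAAT and the box TATAAA, searched on either strand. CACCC starts 198 and 95 bases before the start of Hba-x and TATAAA 28 before it, and in Hbb-y CACCC starts 111 and CCAAT 83 bases before it.
Hba-x: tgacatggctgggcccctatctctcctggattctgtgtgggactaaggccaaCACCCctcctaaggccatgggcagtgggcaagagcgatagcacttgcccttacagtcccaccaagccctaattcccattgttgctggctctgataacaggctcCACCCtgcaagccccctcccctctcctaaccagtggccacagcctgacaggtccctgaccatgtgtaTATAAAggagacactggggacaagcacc
Hbb-y: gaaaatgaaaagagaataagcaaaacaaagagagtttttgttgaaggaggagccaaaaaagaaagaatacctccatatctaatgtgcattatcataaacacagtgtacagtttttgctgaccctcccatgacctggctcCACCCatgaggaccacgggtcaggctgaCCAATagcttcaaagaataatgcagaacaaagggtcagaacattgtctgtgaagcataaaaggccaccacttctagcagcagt
AGATAA, a form of the GATA motif, was searched too and is in neither window. Other forms of this motif were not searched, so their absence is not shown. Of 20 red blood cell genes listed 15 matched, with 18 windows. CACCC was in 16 of the 18 windows (88.9%) against 52.0% of all 32851 windows of this length, CCAAT in 9 against 33.8%, TATAAA in 27.8% against 12.4%, and AGATAA in 27.8% against 9.99%. A match is a description of letters and no binding was measured.

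Neural genes did not rise as a group. Of 23 neural progenitor genes 5 rose, 8 fell and 10 were not called, with a median of -0.67. Pax6, a transcription factor gene of the early neural tube and eye, stood at 5.56 and 6.68 CPM at day 0 and 0.869 and 1.16 CPM at day 14 (log2 fold change -2.59 ± 0.29 (SE), edgeR adjusted p = 2.3e-06). Zic2 fell by 2.51, and Zic1 and Emx2 rose by 2.85 and 3.90. Of 22 neuronal genes 11 fell and 5 rose, with a median of -1.02. Tubb3, a neuronal tubulin gene, stood at 174 and 153 CPM at day 0 and 11.4 and 10.7 CPM at day 14 (log2 fold change -3.88 ± 0.15 (SE), edgeR adjusted p = 7.5e-11). Ncam1 and Isl1, which are also made outside the nervous system, rose by 2.07 and 6.42.

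Epithelial, trophoblast and patterning genes rose in part. Of 24 surface ectoderm and epithelium genes 14 rose, 12 of them over 2-fold, and 7 fell, 4 of them over 2-fold. The median log2 change was 1.115, and members that fell are not named here. The keratin genes Krt8, Krt18 and Krt19 rose by 5.09, 4.86 and 4.76. Of 21 trophoblast genes listed 14 were tested, and 11 of these rose and 2 fell, both by over 2-fold. Of those listed, 8 had no count at day 0 in 6A, so that none of these could fall. Hand1 and Peg10 rose by 6.28 and 2.00. The log2 change of Tfap2c was -1.11, and Prl2c2 had 57 counts over the day 0 libraries and 2 over the day 14 libraries. Of 33 Hox genes 22 rose and 4 fell. Hoxb4 stood at 0 and 0.334 CPM at day 0 and 10.2 and 11.4 CPM at day 14 (log2 fold change 5.78 ± 0.46 (SE), edgeR adjusted p = 7.6e-08). Hoxd13 and Hoxc13, at the far end of their clusters, fell by 2.29 and 2.18.

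Signalling genes went in both directions. Of 43 Wnt pathway genes 26 rose and 9 fell. Nkd1, a feedback inhibitor, rose by 5.80, and the ligand gene Wnt4 rose by 5.28. The receptor genes Fzd5 and Fzd10 fell by 2.51 and 2.12. Of 40 Nodal, BMP and TGF-beta genes 23 rose and 10 fell. Tgfb2 rose by 3.43, while Gdf3, Tdgf1 and the BMP antagonist Grem1 fell by 3.40, 2.87 and 6.87. Of 31 imprinted genes 21 rose and 4 fell. Peg3 stood at 145 and 168 CPM at day 0 and 2619.5 and 3123 CPM at day 14 (log2 fold change 4.20 ± 0.18 (SE), edgeR adjusted p = 2.6e-10). Igf2r and Grb10 fell by 2.33 and 2.53.

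**Figure D3:**
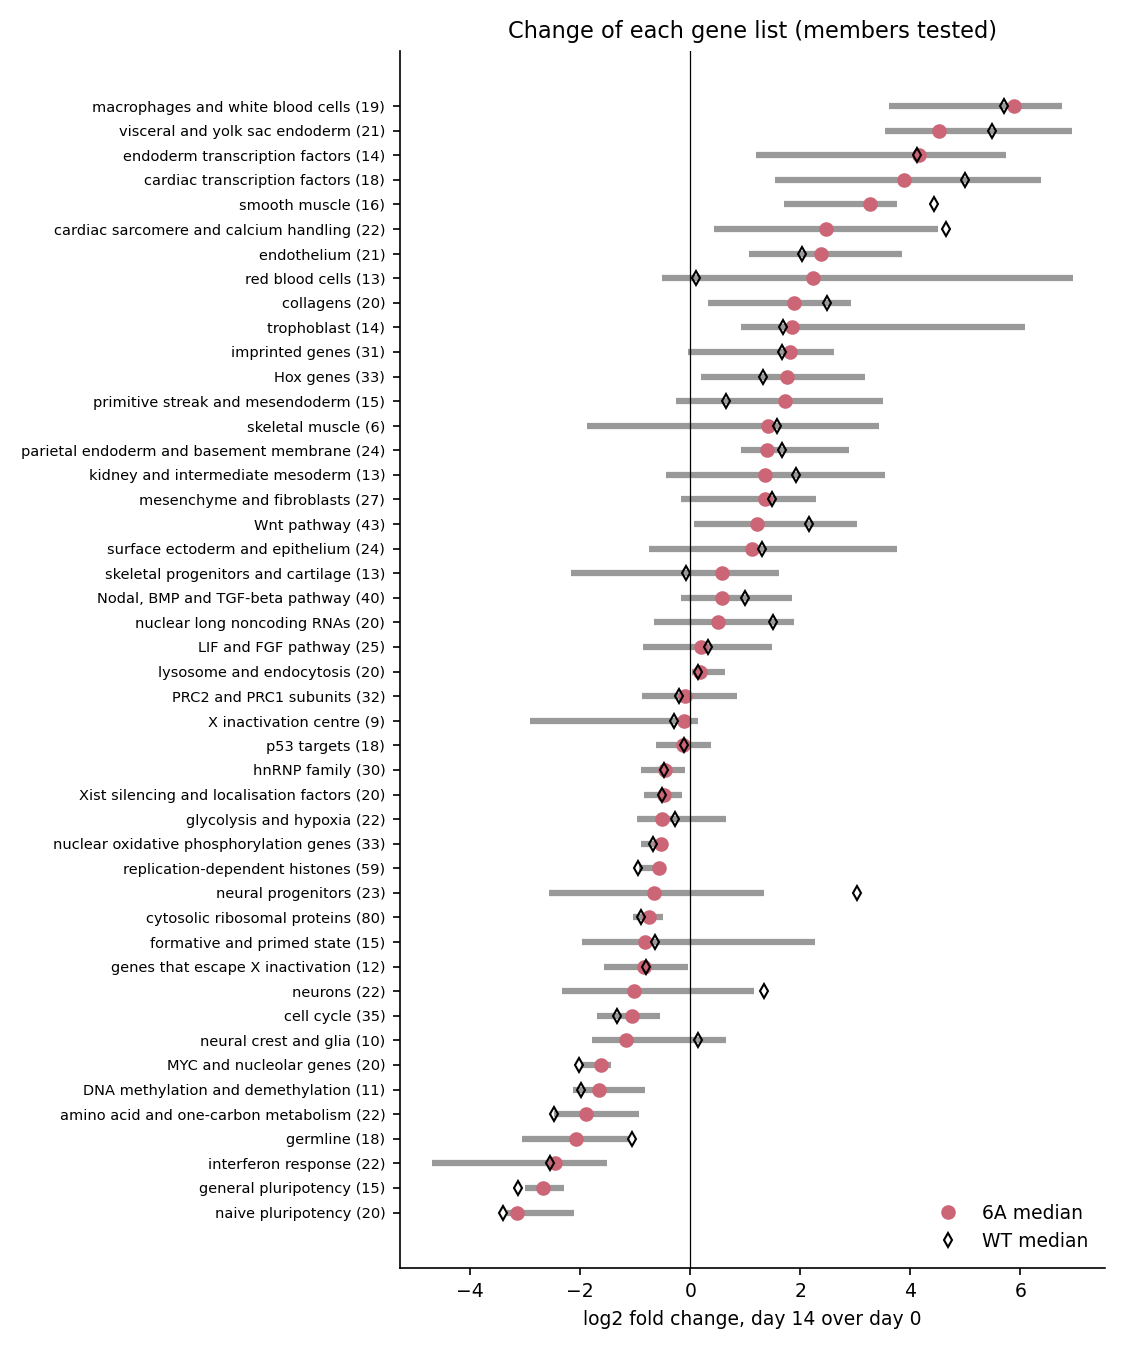
Median log2 fold change from day 0 to day 14 of each list with 5 or more tested members, 6A as red circles with grey bars for the quartiles and WT as open diamonds, with the number of members in brackets. The 6A medians run from -3.15 for naive pluripotency to 5.88 for macrophages, and the neural progenitor medians were -0.67 in 6A and 3.04 in WT.

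Fibroblast and matrix genes gave a mixed picture in all reads. Of 27 mesenchyme and fibroblast genes 18 rose and 7 fell, and of 20 collagen genes 15 rose and 4 fell. Col1a2 stood at 562 and 518 CPM at day 0 and 5136 and 4533 CPM at day 14 (log2 fold change 3.16 ± 0.15 (SE), edgeR adjusted p = 7e-10). Thy1, a surface protein gene of fibroblasts and neurons, stood at 190.4 and 181 CPM at day 0 and 7.15 and 7.43 CPM at day 14 (log2 fold change -4.67 ± 0.16 (SE), edgeR adjusted p = 3.7e-11). Mmp3, Penk and Il1rl1 were among the 15 largest falls. Mmp3, a matrix protease gene, had 238 and 247 CPM at day 0 and 0.0966 and 0.193 CPM at day 14, a ratio of 1677-fold (95% counting interval 574 to 8133). Penk, the proenkephalin gene, stood at 439.8 and 409 CPM at day 0 and 1.16 and 0.869 CPM at day 14 (log2 fold change -8.69 ± 0.18 (SE), edgeR adjusted p = 1.6e-12). Il1rl1, the IL-33 receptor gene, fell by 8.53.

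The parental genomes of these reads differed between the days. The reads of 7 mesenchyme genes that lie where the 6A line carries both genomes had a pooled 129 share that went down. It was 92.2% and 91.9% at day 0 and 50.9% and 51.2% at day 14. For 5 collagen genes it was 93.9% and 93.7% at day 0 and 48.9% and 47.05% at day 14. All 6828 autosomal genes of such regions together had 54.9% and 54.8% at day 0 and 47.7% and 47.7% at day 14. Col1a1, Pdgfra and Vim were named after their values were seen. Col1a1, of collagen type I, had 9 CAST and 1201 129 reads at day 0 and 4754 CAST and 4802 129 reads at day 14. Pdgfra, a receptor gene of mesenchymal cells, had 9 CAST and 697 129 reads at day 0 and 563 CAST and 635 129 reads at day 14. Vim, the vimentin gene, had 936 CAST and 16130 129 reads at day 0 and 6486 CAST and 6740 129 reads at day 14.

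CAST reads were then counted alone, an alternative chosen after seeing the data. Of 3512 genes tested so, 1163 rose (33.1%) and 1006 fell (28.6%), with a median of 0.05. Vim was not called in all reads (edgeR adjusted p = 0.877) and rose in CAST reads (log2 fold change of CAST reads 3.12 ± 0.15 (SE), edgeR adjusted p = 9.5e-15). Col1a1 rose as well (log2 fold change of CAST reads 9.32 ± 0.40 (SE), edgeR adjusted p = 1.6e-10), and so did Pdgfra (log2 fold change of CAST reads 6.26 ± 0.33 (SE), edgeR adjusted p = 4.4e-14). The median of the 5 mesenchyme genes tested was 3.69 in CAST reads and 0.02 in all reads, and that of 4 collagen genes 5.14 and 1.89. For 15 Nodal, BMP and TGF-beta genes it was 1.88 and 0.96, and for 9 hnRNP genes -0.23 and -0.53. Y-linked counts, with 1 at day 14, and the 129 share of the mesenchyme and collagen genes were both lower at day 14. Lower values at the same day do not show a common source. What part feeder RNA had in the day 0 levels was not tested, and the strain of the feeders is not given. Whether all CAST reads at day 0 came from the 6A line was not tested either. Mgp, described at the end, had mostly CAST reads at day 0 where neighbouring genes were nearly all 129 at day 14.

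**Figure D4:**
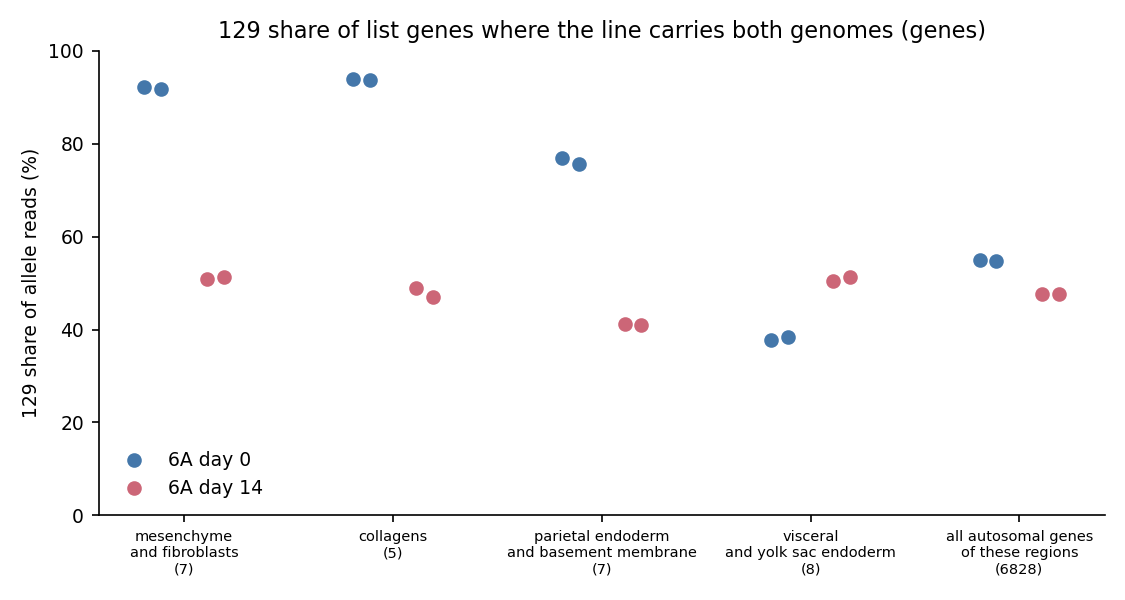
Share of allele-assigned reads given to 129 in each 6A library, in percent, for genes that lie where the line carries both genomes, with day 0 in blue and day 14 in red and the number of genes in brackets. Mesenchyme genes were at 92.2% and 91.9% at day 0 and 50.9% and 51.2% at day 14, while all genes of these regions stayed between 47.7% and 54.9%.

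Genes induced by interferon fell. Of 22 interferon response genes 20 fell and 0 rose, with a median of -2.46. Ifit1, an antiviral RNA-binding protein gene, stood at 97.6 and 114 CPM at day 0 and 2.32 and 1.93 CPM at day 14 (log2 fold change -5.63 ± 0.19 (SE), edgeR adjusted p = 2.4e-11). Irf7, a transcription factor gene of the response, stood at 56.3 and 56.7 CPM at day 0 and 0.869 and 0.579 CPM at day 14 (log2 fold change -6.27 ± 0.23 (SE), edgeR adjusted p = 4.7e-11). Oas1a, an RNA sensor gene, stood at 67.9 and 62.95 CPM at day 0 and 3.57 and 4.54 CPM at day 14 (log2 fold change -4.01 ± 0.16 (SE), edgeR adjusted p = 1.3e-10). Ifit3 fell by 4.93 and has a near copy, so its counts are uncertain. Oas1a lies where both genomes are present and had 526 CAST and 759 129 reads at day 0 and 29 CAST and 43 129 reads at day 14, a fall in CAST reads too (log2 fold change of CAST reads -3.83 ± 0.29 (SE), edgeR adjusted p = 3.7e-11). In CAST reads 3 of the 4 members tested fell. As said above, CAST reads at day 0 were not shown to come only from the 6A line.

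Windows of 250 bases before the start of 3 of these genes are shown because the genes fell together. Capitals mark GAAANNGAAA, searched on either strand as the core of the interferon-stimulated response element, a known element of interferon-induced genes. The windows are from RefSeq on GRCm38.p6 (Ifit1 at chr19:34640639-34640888, plus strand, Oas1a at chr5:120907526-120907775, minus strand, Irf7 at chr7:141266425-141266674, minus strand). They were picked after the matches were seen, with Irf7 as a gene whose window holds none. Matches start 104 and 85 bases before the start of Ifit1, and 20 and 14 before that of Oas1a, where they overlap.
Ifit1: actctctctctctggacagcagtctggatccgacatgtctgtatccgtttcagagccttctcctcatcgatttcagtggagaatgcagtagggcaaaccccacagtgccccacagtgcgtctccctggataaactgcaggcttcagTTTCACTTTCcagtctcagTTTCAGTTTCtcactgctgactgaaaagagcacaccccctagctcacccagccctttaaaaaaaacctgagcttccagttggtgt
Oas1a: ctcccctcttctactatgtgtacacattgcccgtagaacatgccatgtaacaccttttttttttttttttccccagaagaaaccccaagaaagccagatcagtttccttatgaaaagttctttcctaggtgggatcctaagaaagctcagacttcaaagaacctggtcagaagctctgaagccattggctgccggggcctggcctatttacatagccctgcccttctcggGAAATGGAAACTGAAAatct
Irf7: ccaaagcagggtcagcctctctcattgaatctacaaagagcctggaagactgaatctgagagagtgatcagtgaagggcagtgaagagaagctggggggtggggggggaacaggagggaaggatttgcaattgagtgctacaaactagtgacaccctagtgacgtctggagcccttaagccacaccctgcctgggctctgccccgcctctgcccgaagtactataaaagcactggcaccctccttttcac
Of 22 interferon genes listed 18 matched, with 21 windows, and 8 windows (38.1%) held the element against 2.98% of all windows. The CArG box was searched in the same way in 14 windows of 13 smooth muscle genes and was in 1 of them (7.14%), against 1.47% of all windows.

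Most changes in 6A had a like change in WT. With the same fit, 11630 genes were called in WT (75.2%), and 9901 genes were called in both genotypes in the same direction. In WT 38.4% rose and 36.8% fell. The comparisons share the estimate of spread. The difference between the 6A change and the WT change was called for 733 genes (4.74%), with 217 higher in 6A (1.4%) and 516 lower (3.34%). Among them 60 rose in WT and fell in 6A, 20 did the reverse, and 124 rose in WT and were not called in 6A. Leaving out single libraries lowered this count to 280 without the second WT day 14 library, 341 and 465 without the first and second 6A day 14 library, 350 without the first WT day 14 library and 371 without the second 6A day 0 library. Of the differences called, 29.6% were higher in 6A, against 40% by DESeq2, 42.3% with no filter on low counts, 37.8% with RLE scaling and 21.4% with no scaling factor. Without 1 library the share ran from 24% to 37.6%.

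The difference was called lower for 12 of 23 neural progenitor genes and for 7 of 22 neuronal genes, and higher for none of either list. Hes5, a target of Notch signalling, had 0.513 and 0.2 CPM at day 0 and 0.0966 and 0 CPM at day 14 in 6A and 0.123 and 0.565 CPM at day 0 and 16.1 and 12.4 CPM at day 14 in WT (difference of the log2 changes -7.67 ± 1.26 (SE), edgeR adjusted p = 0.00355). Pax6 in WT stood at 6.29 and 6.85 CPM at day 0 and 10.3 and 10.9 CPM at day 14 (difference of the log2 changes -3.27 ± 0.36 (SE), edgeR adjusted p = 0.00027). Zic1 in WT stood at 0.123 and 0.636 CPM at day 0 and 43.8 and 47.1 CPM at day 14 (difference of the log2 changes -3.80 ± 0.65 (SE), edgeR adjusted p = 0.00476). In 6A Hes5 held 1 count over both day 14 libraries, and its day 0 level was 6.99-fold (95% counting interval 0.968 to 306) higher. In WT both day 14 libraries were above both day 0 libraries for these 3 genes. Pou3f2, Myt1, Myt1l and Pou3f3, transcription factor genes of neurons, differed by -7.13, -5.82, -5.77 and -5.07. None of these 4 genes was called in 6A itself (edgeR adjusted p = 0.174, 0.477, 0.184 and 0.756). The calls of Pou3f2, Myt1, Pou3f3 and Six3os1 each lost significance when 1 library was left out (edgeR adjusted p = 0.0592 for Pou3f2 without the second 6A day 0 library, and up to 0.34, 0.157 and 1 for the others).

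For muscle genes the difference was lower for 7 of 22 cardiac sarcomere genes and 7 of 16 smooth muscle genes, and higher for none. Ttn in WT stood at 29.7 and 36.4 CPM at day 0 and 736 and 902 CPM at day 14 (difference of the log2 changes -2.44 ± 0.19 (SE), edgeR adjusted p = 3.1e-05). Acta2 in WT stood at 51.95 and 47.2 CPM at day 0 and 1384 and 1160 CPM at day 14 (difference of the log2 changes -0.77 ± 0.18 (SE), edgeR adjusted p = 0.0234). Both genes rose in both genotypes.

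For red blood cell genes the difference was higher for 5 of 13 members and lower for none, and the list's summed level was 109.1 and 109.7 CPM in 6A at day 14 and 18.4 and 14.2 CPM in WT. Hba-x in WT stood at 0.74 and 0.141 CPM at day 0 and 0.464 and 0.316 CPM at day 14 (difference of the log2 changes 9.14 ± 1.24 (SE), edgeR adjusted p = 0.00119). Hbb-bh1 in WT stood at 0.37 and 0.282 CPM at day 0 and 0.348 and 0.554 CPM at day 14 (difference of the log2 changes 6.39 ± 0.86 (SE), edgeR adjusted p = 0.00112). The WT groups overlapped for both Hba-x and Hbb-bh1, at low levels beside a floor of 0.2118 to 0.3702 CPM in the WT libraries. Hbb-y in WT stood at 0 and 0.0706 CPM at day 0 and 0.58 and 0.0791 CPM at day 14, and its difference of 5.27 was not called (edgeR adjusted p = 0.319). Fgf5, a growth factor gene of primed cells, Ctsk, a protease gene, and Vrtn also differed upward, by 5.04, 3.10 and 3.02.

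**Figure D5:**
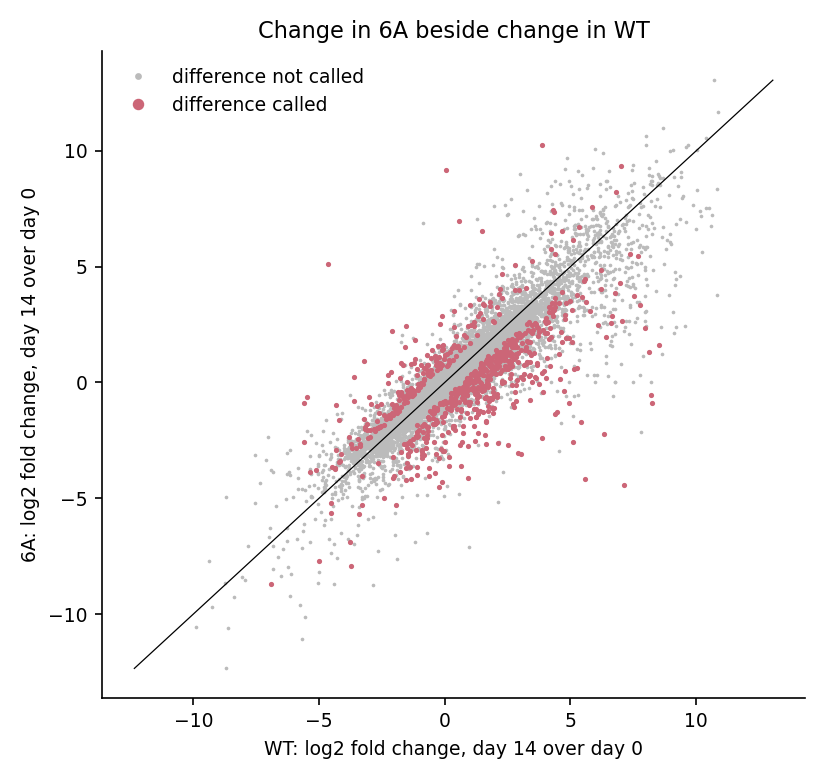
Log2 fold change from day 0 to day 14 in 6A against that in WT for the 15458 genes tested, with the 733 genes whose difference was called in red and a line of equality. Most points follow the line, and the called genes lie more often below it (516) than above it (217).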

How the data were processed

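RNA from 2 libraries each of 6A and WT cells at days 0 and 14 was sequenced with a directional kit, per the labels' protocols. The submitters' processing notes name cutadapt 1.4.2, STAR 2.7.10a and mm10. No source used here names the counter, its strand setting, the annotation or the rule for giving reads to a parental genome. The authors deposited raw counts per gene of all reads, of CAST reads and of 129 reads. Totals were 8146684 to 15540163 counts per library, and depth limits genes near the floor.

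Counts of all reads were fitted with edgeR 4.0.16 in R 4.3.3 (filterByExpr, TMM, quasi-likelihood test, Benjamini-Hochberg over 15458 genes, 8963 left out), with 1 term per group over all 8 libraries and 4 residual degrees of freedom. The ratio of 129 to CAST counts was fitted with library terms for genes with a mean of 10 allele reads. A gene was held to lie where both genomes are present when neighbours within 2 Mb had a median 129 share of 30 to 70% at day 14. Symbols were matched to GENCODE vM21 for positions (98.05%). The scripts were tested on simulated data, where 2-fold changes of genes with low counts were often missed, so a gene that was not called is not shown to be unchanged. Exact permutation of 2 against 2 libraries cannot go below p = 0.333, so it was not used.

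The members and the 48 gene lists were chosen with earlier results of these data known. The rule for naming genes takes Xist, Tsix and Hnrnpk, then the 15 largest rises and falls with a mean of 10 CPM and no overlap, up to 4 members per list by smallest adjusted p and 2 of the opposite direction, the 8 largest differences between genotypes in each direction with a mean of 5 CPM, and X-linked genes with the most allele reads or the largest change of ratio, passing over predicted genes. Some genes that the rule names are not reported here. Alternatives were RLE or no scaling, DESeq2 1.42.0, no filter, a replicate block, fewer libraries, a 2-fold threshold and CAST reads only, the last and its region rule chosen after seeing the data.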

Additional observations from a re-analysis of the deposited data

Results flagged for a closer look

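For the genes below, the change from day 0 to day 14 differed between 6A and WT by the test of the difference itself (edgeR adjusted p under 0.05). Values are the 6A log2 change minus the WT log2 change. The difference was above 0 for Ifi202b, Stab1, Zfp42, Dnmt3l, Sall4 and Cbx7, at 6.41, 2.36, 0.598, 0.88, 0.615 and 0.956. It was also above 0 for Gdf3, Cubn, Hbb-bh1, Hba-x, Gata1 and Tie1, with values of 0.748, 2.38, 6.39, 9.14, 2.58 and 3.04. Differences above 0 were further found for Wt1, Tfap2c, Slc7a3, Asns, Hist2h2bb and Fgf5, of 1.38, 0.904, 0.665, 0.608, 0.643 and 5.04. In Mmp9, Ctsk and Vrtn the value above 0 was 3.13, 3.1 and 3.02.

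The difference was below 0 for Penk, Tmem132d, Tnn, Stag3, Grem1 and Foxa1, at -1.77, -4.19, -2.71, -1.17, -3.09 and -2.92. It was also below 0 for Ttn, Actg2, Acta2, Postn, Spp1 and Zic2, with values of -2.44, -1.12, -0.771, -0.879, -0.681 and -1.14. Differences below 0 were further found for Pax6, Zic1, Tubb3, Mapt, Tfap2b and Ednrb, of -3.27, -3.8, -2.09, -2.01, -4.2 and -0.912. In Vegfa, Ifit1, Bgn, Six3os1, Hes5 and Pou3f2 the values were -1.14, -1.11, -1.6, -8.72, -7.67 and -7.13. Values for Myt1, Myt1l, Slc24a2 and Pou3f3 were -5.82, -5.77, -5.61 and -5.07. Ctsk and Vrtn rose in 6A and fell in WT. The call of Ifi202b was lost without the second 6A day 0 or the first WT day 0 library (edgeR adjusted p = 0.0668 and 0.056), that of Tie1 without 3 single libraries (0.0507 to 0.153) and that of Mmp9 without 3 (0.0588 to 0.131). The values for Penk, Tnn, Grem1, Spp1, Postn and Bgn stand beside a difference in Y-linked counts at day 0, which were 40.9 and 45.2 per 1e+06 library counts in 6A and 26.6 and 26.1 in WT; the part of other cells in these values was not tested. No explanation of these differences was tested.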

How the results depend on the processing

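The change from day 0 to day 14 in 6A was called for 9954 to 11715 genes without each library in turn (4846 to 5759 higher, 5072 to 5956 lower). When an estimated change over 2-fold was also required, 6803 genes were left (3622 higher, 3181 lower). The difference between genotypes depended more on single libraries, with 280 to 835 genes called (69 to 295 higher, 211 to 587 lower), and with 416 higher without the filter on low counts, 130 higher past 2-fold and 336 lower by DESeq2. The counts of the 129 to CAST ratio stayed within 1.5 times under each alternative run, with 294 to 334 X-linked genes lower without each library. No label ties equal replicate numbers to a shared culture or day, and 2 pairs per comparison are too few to settle pairing from the data. The differences between replicates correlated at 0.237 between the 6A groups, 0.152 between the day 14 groups and 0.00422 to 0.0855 between the others. A replicate block gave 11484 genes for the 6A change (5602 higher, 5882 lower) and 1018 for the difference (362 higher, 656 lower). No called value of a named gene changed sign under these alternatives, and 23 of 265 values lost their call under at least 1 of them, 13 at the 2-fold threshold and 14 under another, some under both. In CAST reads alone Hnrnpk (-0.385, edgeR adjusted p = 0.214) was no longer called. With 2 libraries per group a left-out library leaves 1, which is assumed to vary like the other groups, and a difference that was not called is not shown to be absent.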

Other observations

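The same test of day 14 against day 0 in 6A called further genes that are not described above for that change. Tcf21, a mesothelial and kidney transcription factor gene, Cryaa, a lens crystallin gene, and Emcn, an endothelial sialomucin gene, had no count in either 6A day 0 library and were at least 196-fold, at least 155-fold and at least 145-fold higher at day 14. Aldh1a1, which makes retinoic acid, had 0.0855 and 0.0668 CPM at day 0 and 57.9 and 56.1 CPM at day 14, a ratio of 760.4-fold (95% counting interval 210.04 to 6286). Wt1, a transcription factor gene of kidney and mesothelium, stood at 1.28 and 1.74 CPM at day 0 and 159 and 166 CPM at day 14 (log2 fold change 6.72 ± 0.19 (SE), edgeR adjusted p = 7.2e-12). Gldn stood at 54.8 and 59.5 CPM at day 0 and 0 and 0 CPM at day 14 and was at least 397-fold lower at day 14, and it had 16 CAST and 828 129 reads at day 0 and 0 CAST and 0 129 reads at day 14. Mgp, the matrix Gla protein gene, lies where the 6A line is nearly all 129 and had 5601 CAST and 54 129 reads at day 0 and 6 CAST and 706 129 reads at day 14, where neighbouring genes had a median 129 share of 98.3% at day 14.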
